A study of Mus musculus with 2 samples.

Results

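Genes of fatty acid synthesis and of cholesterol synthesis, the main targets of the SREBP transcription factors, were followed in mouse hearts after free feeding or caloric restriction, with and without the deacetylase Sirt1 in cardiomyocytes. The genes were taken from a list of 37, 20 in a fatty acid branch and 17 in a sterol branch, by matching the gene symbol (or a synonym, such as Msmo1 for Sc4mol) of the array's probes. Probes were found for 35 of them among the 16390 genes with a named probe, each represented by a single probe, so no second probe could be set beside any value. Hmgcs1 and Fdps of the sterol branch had no named probe and were not analysed here.

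Whole-heart RNA was hybridised to 2 two-colour oligonucleotide arrays, 1 for control mice and 1 for mice with a cardiomyocyte-specific Sirt1 knockout, all males on the C57BL/6J background, 6 months old. On each array 1 heart from a mouse fed ad libitum (AL) for 3 months carried Cy5, and 1 heart from a mouse under caloric restriction (CR) by 40% for 3 months carried Cy3, and the dyes were not swapped. Neither the Cre line nor the alleles of the mice are given in the sources used. The 4 groups were thus control AL, control CR, knockout AL and knockout CR, with 1 heart each, so no value has a replicate check, no test was possible and no difference can be set against the spread between mice. Diet cannot be told apart from dye within an array, and genotype cannot be told apart from array. Of the cardiomyocyte markers, 14 of 14 on the array were detected in every heart. Knockout over control, the Sirt1 probe itself gave -0.04 with AL and -0.02 with CR on the log2 scale; where its probe lies relative to the deleted part is not known here, and other cells of the heart keep the gene, so this does not check the genotype.

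As background, the SREBP proteins are made as precursors in the membrane of the endoplasmic reticulum. The escort protein Scap carries them to the Golgi for cleavage when sterols are low, and the Insig proteins hold them back when sterols are high. The form encoded by Srebf1 mainly drives fatty acid and triglyceride synthesis, and the form encoded by Srebf2 mainly drives the cholesterol pathway and uptake. Mlxipl encodes ChREBP, a carbohydrate-responsive factor that shares lipogenic targets with Srebf1. Liver and fat are the main sites of fatty acid synthesis, whereas heart muscle chiefly burns fatty acids.

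SREBP binds its sites together with partner factors, among them NF-Y, which binds the CCAAT box. Promoters from RefSeq (GRCm38.p6), from 250 bases before to 50 after an annotated start, were found for 16 fatty acid and 13 sterol members. These were searched on both strands for CCAAT (read as ATTGG on the opposite strand), for the E-box CACGTG and for the sterol element TCACNCCAC. Sequences of 6 promoters are given because they belong to the measured sterol members with the most CCAAT boxes (Mvk and Nsdhl), to the sterol sensor Insig1 and to the members that differed most between the genotypes (Acly, Lpin1 and Agpat2). Mvk lies at chr5:114444019-114444318, plus strand. Nsdhl lies at chrX:72918271-72918570, plus strand. Insig1 lies at chr5:28071162-28071461, plus strand. Acly lies at chr11:100527951-100528250, minus strand. Lpin1 lies at chr12:16610917-16611216, minus strand. Agpat2 lies at chr2:26604368-26604667, minus strand. Each is printed along its gene's own strand, and capitals mark matches to the CCAAT box or the E-box.
Mvk: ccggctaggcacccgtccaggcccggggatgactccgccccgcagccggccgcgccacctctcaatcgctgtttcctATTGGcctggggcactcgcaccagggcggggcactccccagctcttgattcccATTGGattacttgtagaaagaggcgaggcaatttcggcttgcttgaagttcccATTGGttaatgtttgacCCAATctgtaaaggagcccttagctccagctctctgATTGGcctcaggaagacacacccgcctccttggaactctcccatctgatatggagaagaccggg
Nsdhl: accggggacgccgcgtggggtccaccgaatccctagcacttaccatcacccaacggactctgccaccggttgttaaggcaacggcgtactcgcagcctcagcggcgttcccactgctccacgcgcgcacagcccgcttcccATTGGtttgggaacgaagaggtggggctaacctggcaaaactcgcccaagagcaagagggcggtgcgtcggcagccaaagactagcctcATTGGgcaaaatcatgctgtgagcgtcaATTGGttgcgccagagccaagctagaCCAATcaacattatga
Insig1: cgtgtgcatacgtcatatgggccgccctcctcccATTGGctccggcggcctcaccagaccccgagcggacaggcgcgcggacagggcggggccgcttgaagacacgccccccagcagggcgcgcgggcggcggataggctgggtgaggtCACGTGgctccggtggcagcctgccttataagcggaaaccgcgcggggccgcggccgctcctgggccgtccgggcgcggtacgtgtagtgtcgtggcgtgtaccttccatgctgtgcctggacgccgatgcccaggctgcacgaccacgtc
Acly: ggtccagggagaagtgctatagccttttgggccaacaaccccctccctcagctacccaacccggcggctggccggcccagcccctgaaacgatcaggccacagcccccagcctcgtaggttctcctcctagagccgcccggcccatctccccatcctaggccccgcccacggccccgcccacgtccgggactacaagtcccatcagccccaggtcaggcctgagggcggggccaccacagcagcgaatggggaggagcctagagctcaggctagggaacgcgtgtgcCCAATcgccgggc
Lpin1: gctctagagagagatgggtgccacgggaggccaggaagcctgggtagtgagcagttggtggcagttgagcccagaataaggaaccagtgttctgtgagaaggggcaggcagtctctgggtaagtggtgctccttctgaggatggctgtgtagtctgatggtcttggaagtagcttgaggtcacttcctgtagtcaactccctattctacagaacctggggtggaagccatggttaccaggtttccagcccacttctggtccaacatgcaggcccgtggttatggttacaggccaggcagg
Agpat2: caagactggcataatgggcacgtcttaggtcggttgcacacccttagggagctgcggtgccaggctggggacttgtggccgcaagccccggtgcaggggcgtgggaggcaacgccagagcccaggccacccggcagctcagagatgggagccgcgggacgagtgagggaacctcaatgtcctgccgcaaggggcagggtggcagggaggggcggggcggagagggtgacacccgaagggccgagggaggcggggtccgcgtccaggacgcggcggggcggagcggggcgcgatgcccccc

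The CCAAT box was present in 13 of 13 sterol members (100%) and in 11 of 16 fatty acid members (68.8%), beside 41.1% of all 27025 genes in the table. Counted by promoter rather than by gene, it was in 81.2% of 16 sterol, 57.1% of 21 fatty acid and 37.4% of all 32851 promoters. Mvk held 5, with first bases at -173, -120, -67, -50 and -14 from the start, Nsdhl held 4, and Hmgcs1, Sc4mol and Fasn also held 3 or more, as 3.88% of all genes did. In Fasn the matches at -62 and -59 overlap, on opposite strands, and its window lies at a start 0.6 kb inside the gene. Agpat2, Lpin1, Acaca, Elovl6 and Fads2 held none in these windows. The only window in the table for Lpin1 lies at a start 42.9 kb inside the gene and that for Acaca 65.8 kb inside, counted from the gene's 5′ end in RefSeq, so promoters at the outer ends of these genes were not searched. The windows of Acacb and Srebf1 also lay more than 1 kb inside. The only CCAAT boxes found for Dhcr7 and Me1 were in windows at starts 7.0 and 8.6 kb inside their genes. Of 15 further sterol genes with a promoter in the table, 10 (66.7%) held it, and of 20 further genes of fatty acid and lipid synthesis 10 (50%). The sterol element was in the window of Hmgcs1, in a window of Mlxipl at a start 17.0 kb inside the gene, and in 1.44% of all genes. The E-box was in 3 sterol members (Insig1, Sc5d and Dhcr7), in 2 fatty acid members (Elovl5 and Mlxipl) and in 8.09% of all genes. A match describes the letters only and does not show that a factor binds there.

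Values are log2 normalized signals, and a probe was called detected where its spot exceeded the mean of the array's blank spots by 2 SD. All 4 hearts gave a detected signal for 31 of the 35 members, 18 of the fatty acid and 13 of the sterol branch. Of these, 13 fatty acid but only 4 sterol members (Lss, Fdft1, Sc5d and Sc4mol) reached the median signal of all 11698 genes detected in every heart. Pnpla3, a lipid droplet protein of liver and fat, was detected in no heart. Acacb, the acetyl-CoA carboxylase whose malonyl-CoA restrains fatty acid entry into mitochondria, was not detected in the knockout CR heart, where it was at least 1.12-fold below the knockout AL heart and at least 1.15-fold below the control CR heart. Dhcr7, the last enzyme of cholesterol synthesis, was not detected in the knockout AL heart, at least 1.05-fold below the knockout CR heart. Pmvk, a kinase of the mevalonate pathway, was detected in the knockout AL heart only, at least 1.06-fold above the control AL heart. These bounds set the brighter heart against the lowest detected signal of the other or its own signal, whichever was higher, and are open to dye bias.

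**Figure D1:**
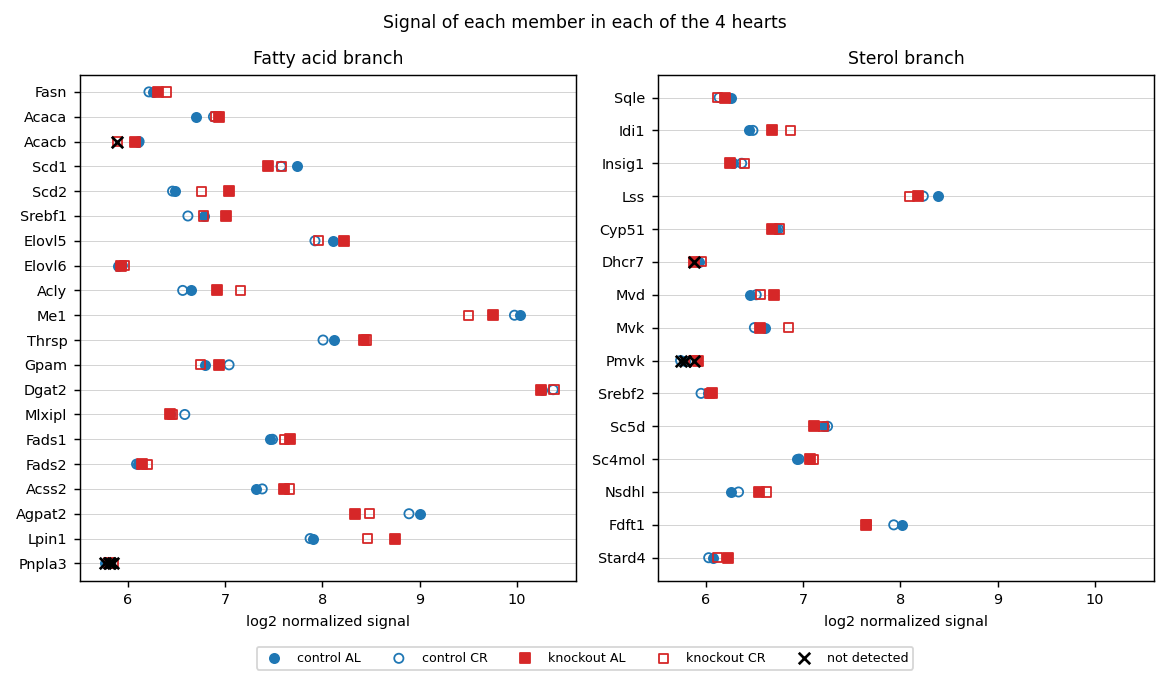
Log2 normalized signal (horizontal axis) of each fatty acid (left) and sterol (right) member in each of the control (blue) and knockout (red) hearts, filled for AL and open for CR, with 1 heart per point and a cross where the probe was not detected. The hearts of most members lie close together, and Lpin1, Agpat2 and Acly spread most, with Lpin1 between 7.87 and 8.74.

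In most members the 4 hearts lay within 1.5-fold of each other. The gap between its highest and lowest heart was below 1.2-fold in 15 of the 31 members detected throughout (48.4%, against 57.3% of all genes), from 1.2-fold to 1.5-fold in 13 (41.9%, against 31.9%) and above 1.5-fold in 3 (9.68%, against 10.9%). By branch, the gap was below 1.2-fold in 38.9% of fatty acid and 61.5% of sterol members, and 1.5-fold or more in 16.7% and 0%. The median gap on the log2 scale was 0.30 in the fatty acid branch, 0.20 in the sterol branch and 0.23 over all genes. The 3 members with the wide gap all belonged to the fatty acid branch, namely Lpin1 (0.87), Agpat2 (0.67) and Acly (0.60). Elovl6, an elongase of saturated fatty acids, had the smallest gap, 0.06, with spots only 2.80 to 3.12 blank SDs above the blank mean. In whole hearts, fewer cells of a type and less RNA per cell cannot be told apart.

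Under caloric restriction neither branch moved as a group. In the control hearts 8 of 19 fatty acid members were higher with CR and 11 lower (median log2 CR over AL -0.02), and 7 of 14 sterol members were higher and 7 lower (median -0.00069), beside 51.4% of 12656 genes above 0 and a median of 0.0042. No member reached 1.5-fold, where 0.814% of all genes were that much higher and 0.34% that much lower, and none reached 1.2-fold, where 12.3% of all genes did in either direction. The fatty acid members ran from -0.19 (Elovl5) to 0.25 (Gpam), and the sterol members from -0.15 (Lss) to 0.09 (Insig1). From the 5th to the 95th percentile all genes covered -0.26 to 0.33. With median centring in place of loess 12 of 19 fatty acid members (median 0.0099) and 8 of 14 sterol members (median 0.05) were higher with CR.

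In the knockout hearts 10 of 18 fatty acid members were higher with CR and 8 lower (median 0.02), and 8 of 13 sterol members were higher and 5 lower (median 0.03), beside 50.1% of 12141 genes above 0. Again none reached 1.5-fold in either direction, as 0.758% of all genes did in each. Past 1.2-fold lay 3 members, Lpin1 at -0.29, Scd2 at -0.28 and Mvk at 0.29, against 12.6% of all genes. With the local background subtracted only 3 of 18 fatty acid and 5 of 13 sterol members were higher, and the medians turned to -0.05 and -0.03.

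**Figure D2:**
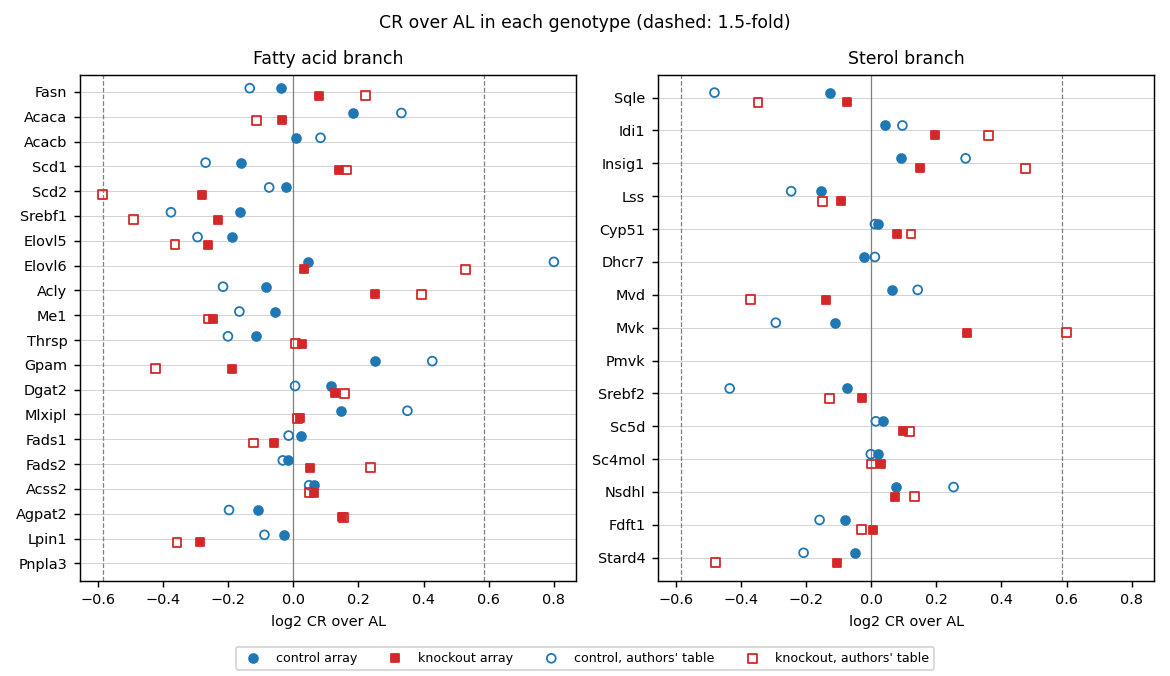
Log2 CR over AL (horizontal axis) of each member on the control array (blue circles) and the knockout array (red squares), filled for the normalization used here and open for the authors' deposited table, with dashed lines at 1.5-fold. All filled points lie between -0.29 and 0.29, and the open points of Elovl6 (0.80, control), Mvk (0.60, knockout) and Scd2 (-0.59, knockout) lie past a dashed line.

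The normalization used here adds a constant to every signal, which draws the ratios of dim probes towards 0. The authors' deposited table, which rests on signals minus the mean of the blank spots, spreads them more. In the authors' deposited table Elovl6 was past 1.5-fold higher on the control array at 0.80 (1 of 19 fatty acid members), where 8.79% of all genes were higher and 4.54% lower by that much. On the knockout array of the authors' deposited table Mvk was past it at 0.60 (1 of 13 sterol members) and Scd2 at -0.59 (1 of 18 fatty acid members), where 7.85% of all genes were higher and 6% lower by that much. The members past 1.5-fold in that table were thus no more frequent than all genes, and Elovl6 rests on a signal of 3.31 scanner units above the blank mean in the control AL heart and of 7.39 in the control CR heart.

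Among the regulators, Srebf1 had log2 signals of 6.78 in the control AL, 6.62 in the control CR, 7.01 in the knockout AL and 6.78 in the knockout CR heart. It was the lower in the CR heart on each array (-0.16 and -0.23, and -0.38 and -0.49 in the authors' deposited table, but -0.09 and -0.02 after subtraction of the local background), with the knockout AL heart highest. Srebf2 stood at 6.03, 5.95, 6.07 and 6.04 in the same order, between 3.42 and 7.26 blank SDs above the blank mean, with CR over AL values of -0.08 and -0.03. Its 4 hearts differed by no more than 0.12. Mlxipl was at 6.44, 6.59, 6.44 and 6.46, so that the control CR heart stood above the other three hearts, which lay together. Insig1, itself a sterol-responsive SREBP target, was at 6.28, 6.37, 6.25 and 6.40. The CR heart was above the AL heart on each array, by 0.09 and 0.15 (0.29 and 0.47 in the authors' deposited table, but 0.02 and -0.01 with the local background subtracted). Thrsp, a nuclear protein that accompanies lipogenesis in liver and fat, was at 8.12, 8.01, 8.42 and 8.45, with both knockout hearts above both control hearts. Its knockout over control values of 0.30 and 0.44 were 0.01 and 0.03 with the local background subtracted.

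The enzymes that supply acetyl groups and reducing power did not move together. Acly, which splits citrate into cytosolic acetyl-CoA, was at 6.65 in the control AL, 6.56 in the control CR, 6.91 in the knockout AL and 7.16 in the knockout CR heart. Both knockout hearts were above both control hearts, and its CR over AL value was -0.08 in control and 0.25 in knockout hearts. Acaca, the cytosolic acetyl-CoA carboxylase and the committed step of the branch, was at 6.70, 6.88, 6.94 and 6.91, with the control AL heart lowest. Acss2, which makes acetyl-CoA from acetate, had CR over AL values of 0.06 on each array. Me1, the cytosolic malic enzyme that yields NADPH, had values of -0.06 and -0.25.

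Fasn, the synthase that builds palmitate, had CR over AL values of -0.04 and 0.08 and stayed within 0.18 over the 4 hearts. Elovl5, an elongase of polyunsaturated fatty acids, was at 8.11 with AL and 7.92 with CR in control hearts and at 8.22 and 7.96 in knockout hearts. The CR heart was the lower on each array, by 0.19 and 0.26 before and by 0.18 and 0.09 after subtraction of the local background. Scd2, a stearoyl-CoA desaturase of tissues other than liver, was at 6.48, 6.46, 7.04 and 6.76, with the knockout AL heart highest and the control hearts alike. Scd1, its close relative, was at 7.74, 7.58, 7.44 and 7.58, and its CR over AL values ran opposite ways, -0.16 and 0.14. Cross-hybridization between these related genes was not tested. The desaturases of polyunsaturated fatty acids, Fads1 and Fads2, stayed within 0.20 and 0.11 over the hearts.

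Of the enzymes of triglyceride and phospholipid assembly, Lpin1 and Agpat2 differed most between hearts. Lpin1, a phosphatidate phosphatase that also acts as a transcriptional coactivator, was at 7.90 in the control AL, 7.87 in the control CR, 8.74 in the knockout AL and 8.46 in the knockout CR heart. Agpat2, which acylates lysophosphatidic acid and is abundant in fat, was at 8.998, 8.89, 8.33 and 8.48. Lpin1 thus had both knockout hearts above and Agpat2 both knockout hearts below the control hearts. Gpam, the mitochondrial acyltransferase that starts glycerolipid synthesis, was at 6.79, 7.04, 6.94 and 6.75, highest in the control CR heart. Dgat2, which completes triglycerides, had CR over AL values of 0.12 and 0.13 and, in the normalization used here, no gap between genotypes beyond 0.01.

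In the sterol branch Idi1 had the widest gap between hearts (0.43), followed by Fdft1 (0.37), Nsdhl (0.36) and Mvk (0.35). Mvk, mevalonate kinase, was at 6.61 in the control AL, 6.501 in the control CR, 6.56 in the knockout AL and 6.85 in the knockout CR heart. The knockout CR heart stood alone above the others. Idi1, the isomerase of the isoprene units, was at 6.44, 6.49, 6.68 and 6.87, and Mvd, the decarboxylase before it, at 6.46, 6.52, 6.70 and 6.56. Both knockout hearts were above both control hearts for Idi1 and for Mvd, but with the local background subtracted Idi1 was lower in the knockout hearts (-0.16 and -0.04, against 0.23 and 0.39). Downstream, Sqle, squalene epoxidase, was at 6.27, 6.14, 6.19 and 6.12, lower in the CR heart on each array. Lss, which closes the ring to lanosterol, was at 8.39, 8.24, 8.19 and 8.09, with the control AL heart highest. Nsdhl, a decarboxylating dehydrogenase of the sterol ring, was at 6.26, 6.34, 6.55 and 6.62, with the knockout hearts above. Its knockout over control values of 0.29 and 0.28 were 0.15 and 0.06 with the local background subtracted. Stard4, a carrier of cholesterol between membranes, was at 6.08, 6.03, 6.23 and 6.12. The remaining sterol members detected throughout, Cyp51, Sc5d, Sc4mol and Fdft1, had CR over AL values between -0.08 and 0.10.

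Between the genotypes, more fatty acid members were higher than lower in the knockout hearts. With AL 13 of 19 were higher in the knockout heart (median log2 knockout over control 0.11), beside 52.6% of 12783 genes and a median of 0.0092, and under CR 14 of 18 (median 0.07), beside 51% of 11957 genes. Under CR the count was 10 of 18 with median centring in place of loess and 12 with signals minus the blank mean. It stayed at 14 with the local background subtracted. With AL these settings gave 14, 14 and 13 of 19. For the sterol branch the knockout heart was the higher in 6 of 13 with AL, at a median of -0.03, and in 10 of 14 with CR, at a median of 0.04. Of the 18 fatty acid members detected throughout, 12 were higher in the knockout under both diets and 3 (Me1, Agpat2 and Mlxipl) lower under both, and of the 13 sterol members 6 were higher and 4 lower under both. Mlxipl was in effect level with AL, at -0.00044 (0.23 with the local background subtracted). The sign was the same under both diets in 25 of 31 members, as in 74% of all genes. Some markers of cells and chambers also differed between the genotypes. The atrial light chain genes Myl7 (-3.95 with AL and -4.06 with CR) and Myl4 (-2.47 and -2.71) were far lower in the knockout hearts. Nppa, the atrial natriuretic peptide gene, was higher (0.99 and 1.95). Bmp10, another atrial marker, was at -0.0048 and -0.06. Sln, also atrial, was at -0.09 with AL and was not detected in the knockout CR heart. With the local background subtracted Nppa was at 0.89 with AL and 0.51 with CR, and Bmp10 at 0.48 and 0.38. Myl7 was then at -3.10 and -3.48 and Myl4 at -1.32 and -1.90. Fibroblast markers were higher in the knockout heart in 7 of 10 with AL (median 0.37) and 8 of 10 with CR (median 0.14), and macrophage markers in 9 of 9 (median 0.24) and 7 of 8 (median 0.14). Cardiomyocyte markers were higher in 11 of 14 with AL (median 0.17) and 7 of 14 with CR (median 0.03). With the local background subtracted the fibroblast medians were -0.02 with AL and -0.07 with CR. In that setting the macrophage medians were 0.20 and 0.20 and the cardiomyocyte medians 0.62 and 0.42. The part of these differences in the values of the members was not tested.

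Past 1.5-fold under AL lay Lpin1, higher at 0.84 (1.79-fold), where 2.57% of all genes were that much higher, and Agpat2, lower at -0.67, where 1.78% were that much lower. Past it under CR lay Acly, higher at 0.60 (1.51-fold), and Lpin1 at 0.59, where 1.43% of all genes were that much higher, and no member was that much lower, against 1.08%. Of all genes compared 0.829% were as high as Lpin1 under AL and 1.43% under CR, 1.35% as high as Acly under CR, and 1.09% as low as Agpat2 under AL. At 1.2-fold in either direction lay 8 of 19 fatty acid and 2 of 13 sterol members under AL, against 20.4% of all genes, and 8 of 18 and 4 of 14 under CR, against 17.8%.

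These differences depended on the treatment of the background. With the local background subtracted 5 fatty acid members (Lpin1, Acss2, Fads1, Dgat2 and Me1) and 1 sterol member (Lss) were past 1.5-fold higher under AL and none lower, where 9.67% of all genes were higher and 9.54% lower. Under CR the same members and Agpat2 were past it and none lower, where 11.1% were higher and 10.4% lower. Lpin1 kept its direction (1.34 and 0.82). Agpat2 turned from -0.67 to 0.55 under AL and from -0.41 to 1.54 under CR. Acly was at -0.01 and 0.43, and Scd2, at 0.55 and 0.29 otherwise, at -0.02 and -0.01. Lss (-0.20 and -0.14) turned to 1.40 and 1.08, and Fdft1, squalene synthase (-0.37 and -0.28), to 0.41 and 0.48. Me1 (-0.28 and -0.47) turned to 0.62 and 0.67, and Dgat2, level between genotypes otherwise, was at 0.88 and 0.64. Acss2 (0.28 under each diet) was at 1.04 and 1.09, and Fads1 (0.20 and 0.12) at 0.89 and 0.70. With signals minus the blank mean in place of the local background, an alternative chosen after the data were seen, all 3 members past 1.5-fold kept their directions, with Lpin1 at 0.99 and 0.72, Acly at 0.54 and 1.15, and Agpat2 at -0.85 and -0.50. In that setting 2 fatty acid members (Lpin1 and Scd2) and 3 sterol members (Nsdhl, Stard4 and Mvd) were past 1.5-fold higher under AL and 1 (Agpat2) lower, where 10.9% of all genes were higher and 9.54% lower. Under CR 3 fatty acid members (Acly, Lpin1 and Scd2) and 3 sterol members (Idi1, Mvk and Nsdhl) were past it and none lower, where 8.87% were higher and 8.8% lower.

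**Figure D3:**
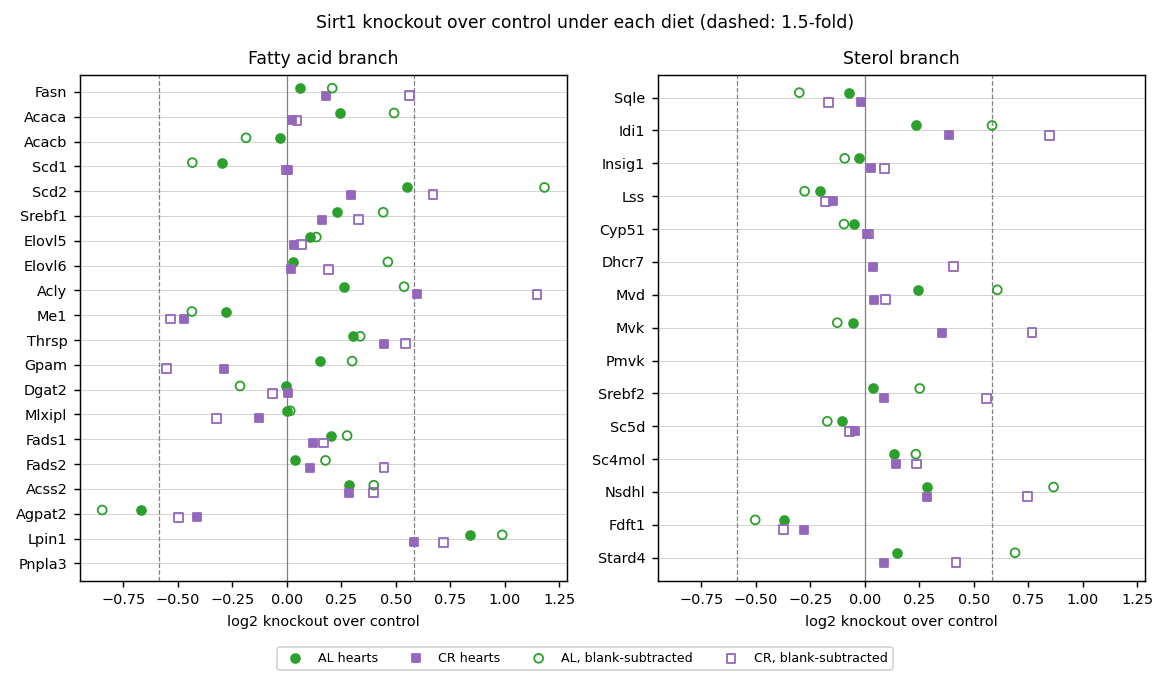
Log2 knockout over control (horizontal axis) of each member in the AL hearts (green circles) and the CR hearts (purple squares), filled for the normalization used here and open for signals minus the blank mean, with dashed lines at 1.5-fold. Lpin1 lies past the right line and Agpat2 past the left line under AL, and the open points of dim members such as Nsdhl (0.87 and 0.75) lie farther from 0 than the filled ones (0.29 and 0.28).

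**Figure D4:**
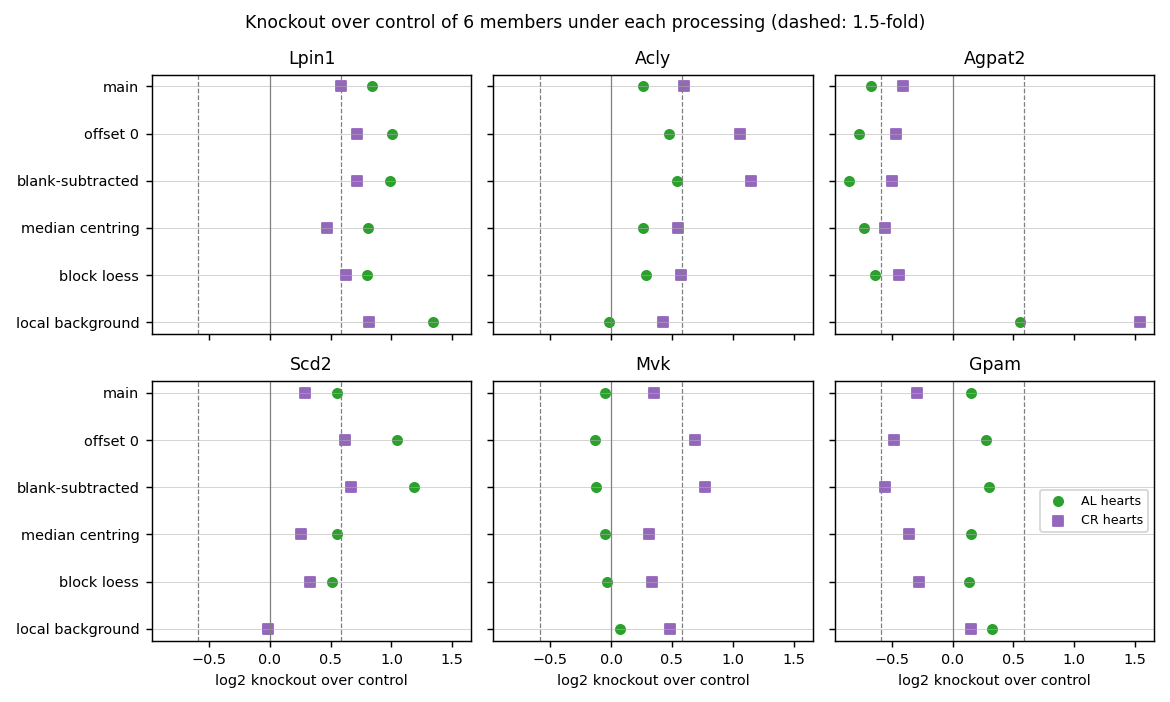
Log2 knockout over control (horizontal axis) of 6 members under each processing (rows), in the AL hearts (circles) and CR hearts (squares), with dashed lines at 1.5-fold. Lpin1 lies right of 0 in every row, between 0.47 and 1.34, and Agpat2 lies left of 0 except with the local background subtracted.

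The difference of the CR responses, knockout minus control, cancels a dye effect only where it is equal on both arrays, which was not tested. Over 24 spots, positive control 2 had a mean log2 CR over AL of -0.09 on the control and -0.78 on the knockout array. For positive control 3 these means were -0.44 and -0.26. In the fatty acid branch 7 of 18 members had the higher response in knockout hearts (median -0.04), and in the sterol branch 10 of 13 (median 0.06), beside 49% of 11698 genes above 0 and a median of -0.0030. The sterol members above 0 were 6 of 13 with median centring in place of loess. No member reached 1.5-fold, as 0.376% of all genes did upward and 0.513% downward, and 4 members passed 1.2-fold, against 10% of all genes. They were Mvk at 0.41, Acly at 0.33, Scd1 at 0.30 and Gpam at -0.44. With the local background subtracted Mvk was at 0.41 and Acly at 0.44, whereas Gpam was at -0.18 and Scd1 at -0.02, and Agpat2, at 0.26 otherwise, was past 1.5-fold at 0.98. In the authors' deposited table the difference was past 1.5-fold for Mvk (0.89), Acly (0.61) and Gpam (-0.85), where 5.97% of all genes were higher and 7.32% lower by that much. The signs of the CR over AL values agreed between the arrays, which share no heart, in 19 of 31 members, against 67.1% of all genes, and in 9 of 18 fatty acid and 10 of 13 sterol members.

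Other genes of these pathways were given by lists chosen with earlier results of these data known. Of 25 further genes of fatty acid and lipid synthesis on the array, 23 were compared, and Mid1ip1, a partner of Thrsp that activates acetyl-CoA carboxylase, was past 1.5-fold with CR in control hearts (0.67, and 0.55 with the local background subtracted) but at 0.01 in knockout hearts. Mcat, of mitochondrial fatty acid synthesis, was past it in knockout hearts at 0.62 (0.34 in control hearts). Between genotypes under AL, Idh1, a cytosolic source of NADPH, was higher at 0.70 and Hsd17b12, of fatty acid elongation, at 0.64 (1.55 and 0.17 with the local background subtracted), and none was past 1.5-fold under CR. The medians of that list were 0.01 and -0.09 for CR over AL in control and knockout hearts and -0.0019 and -0.08 for knockout over control under AL and CR. Of 15 further sterol genes on the array, Hsd17b7, a reductase of the sterol pathway, was past 1.5-fold lower in the knockout CR heart at -0.72 (-0.97 with the local background subtracted), and no other gene was past it in any of these comparisons. Their medians were 0.05 and 0.0046 for CR over AL and -0.15 and -0.16 for knockout over control. Scap, the escort of SREBP, had CR over AL values of -0.16 and -0.09, and Mbtps1, a protease that cleaves it, was lower in the knockout hearts at -0.54 and -0.41. The genes for the rate-limiting reductase and the low-density lipoprotein receptor were not analysed here. Of 10 LXR factors and targets, Apoe, an apolipoprotein, was past 1.5-fold higher in the knockout CR heart (0.68, and 0.53 under AL), and Nr1h3, which encodes LXR alpha, was lower with CR in control hearts at -0.40.

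Markers of fat, a main site of lipogenesis that whole hearts can carry, are given beside these values. Of 10 adipocyte markers on the array, 9 were detected in each AL heart, 8 in the control CR heart and 7 in the knockout CR heart. The hormone gene Lep was detected in none and Adipoq, which encodes adiponectin, in the AL hearts only, while Plin1, Cidec and Cfd were detected in all 4. Without Fabp4, which capillaries also express, and Pnpla2, a lipase that heart muscle also expresses, the other 8 summed to 654 in the control AL, 649 in the control CR, 651 in the knockout AL and 638 in the knockout CR heart. Each of these signals holds the added constant of 50, so the sums can hide changes of dim markers. In the authors' deposited table CR over AL, in control and knockout hearts, was -0.71 and 0.62 for Cfd and 0.49 and -0.18 for Lipe. It was 0.15 and 0.08 for Cidec, -0.07 and -0.22 for Plin1, and -0.15 and -0.22 for Aqp7. Pnpla2 itself had log2 signals of 9.62, 10.07, 9.91 and 10.20. Adipocyte markers were higher in the knockout heart in 4 of 9 with AL and in 3 of 7 with CR, at a median of -0.03 each. Fibroblast markers were lower with CR in 8 of 10 in control and 9 of 10 in knockout hearts (medians -0.30 and -0.41), where 51.4% and 50.1% of all genes were higher. With the local background subtracted these medians were -0.16 and -0.17. Liver markers were at low levels, with Apoa1 and Tat detected in no heart and summed signals, which also hold the constant, between 523 and 573. The part of these cells in the values of the members was not tested.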

How the data were processed

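Whole-heart RNA of 4 mice was measured on 2 two-colour arrays. Per the file headers, the values taken from the deposited scanner files are intensities, namely median spot brightness at 635 nm (Cy5) and 532 nm (Cy3) and that around each spot, from scans at 3 gains tied by line fits. The authors' deposited table gives, per the labels, the log2 ratio of the CR to the AL heart. Scanner values gave the same numbers after taking the blank mean (2736 blank spots, 5% trimmed at each end) off each channel, forming the Cy3 over Cy5 ratio and removing a constant (0.359 and 0.144). The match held for 17404 of 17405 and 16554 of 16555 values within 0.001, so its scale, centring and direction are known. Its column medians were -2.885e-06 and 8.079e-05. Scanner software and build: not given in the sources used here.

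Intensities were corrected with normexp (offset 50) without the local background, normalized by loess within each array with limma 3.58.1 in R 4.3.3 (control and marked spots at weight 0), and by Aquantile between arrays. Detection needed the blank mean plus 2 SD. From 74.0% to 80.7% of 23474 probe spots were detected per heart, with a median of 30.0 to 41.8 scanner units above the blank mean. Of 16631 probes with 1 gene symbol, 12622 were current in GRCm38.p6, 3947 were renamed by a synonym and 62 stayed unmatched. The brightest probe stood for a gene. SDs of log2 ratios over 24 spots of a positive control were 0.045 to 0.088, which is spot noise and not spread between mice. With 2 arrays, precision is limited by their number. The fits were tested on simulated data.

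Counts are given at 1.5-fold and, chosen after the values were seen, at 1.2-fold. Members detected throughout were described in all hearts where they were regulators, past 1.5-fold in a ratio, or among the 2 highest or lowest of a branch for CR over AL on an array; other values named were chosen after they were seen. The members, lists and processing were chosen with earlier results of these data known. Alternatives were local background subtraction, a normexp offset of 0, median centring, loess within blocks, the authors' deposited ratios, no detection filter, brighter genes only, the median over probes, and, added after the data were seen, the signal minus the blank mean.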

Additional observations from a re-analysis of the deposited data

Results flagged for a closer look

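Members whose CR over AL values ran opposite ways on the 2 arrays, each by more than 0.088, are given here. That cut is the largest SD among repeat spots of a positive control. It measures scatter within 1 array and not shifts between arrays. The mean of positive control 2 was -0.09 on the control and -0.78 on the knockout array, and that of positive control 3 -0.44 and -0.26. The difference was not tested, since each array holds 1 pair of hearts. Mvk was lower with CR in control hearts (-0.11) and higher in knockout hearts (0.29), a difference of 0.41. Gpam was higher in control hearts (0.25) and lower in knockout hearts (-0.19), a difference of -0.44. Scd1 was at -0.16 and 0.14, a difference of 0.30, and Agpat2 at -0.11 and 0.15, a difference of 0.26. With the local background subtracted the opposite signs remained for Mvk (-0.24 and 0.17) and Gpam (0.12 and -0.06) but not for Scd1 (-0.09 and -0.10) or Agpat2 (-1.09 and -0.11). With median centring the control value of Agpat2 was 0.00046.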

How the results depend on the processing

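Counts of members above 0 per branch, in 10 comparisons, moved by less than 1.5 times with a normexp offset of 0, loess within blocks, no detection filter, the median over probes and signals minus the blank mean, and so did the 6 recomputed from the authors' deposited ratios. With the local background subtracted, CR over AL in knockout hearts was above 0 in 3 of 18 fatty acid and 5 of 13 sterol members. With median centring the difference of the responses was above 0 in 6 of 13 sterol members. In that setting CR over AL in control hearts was above 0 in 12 of 19 fatty acid members, against 8 in the normalization used here. Knockout over control under CR was above 0 in 10 of 18 fatty acid members, against 14. With only the genes that reached the median signal, CR over AL was above 0 in 5 of 13 fatty acid and 2 of 4 sterol members in control hearts and in 6 of 13 and 3 of 4 in knockout hearts. Knockout over control was then above 0 in 1 of 4 sterol members under each diet, and the difference of the responses in 4 of 4. Fewer members enter these counts by construction. Agpat2, knockout over control with AL, turned to 0.55 with the local background subtracted, and the cause was not tested. Acly with CR fell below 1.5-fold at 0.43 (local background), 0.55 (median centring) and 0.57 (loess within blocks), and Lpin1 with CR at 0.47 (median centring). Among the regulators, the members past 1.5-fold and the 2 highest or lowest per branch, an offset of 0 brought 9 single values past 1.5-fold. Signals minus the blank mean brought 13. Outside this set Elovl6 was past it too with signals minus the blank mean, at 0.80 for CR over AL in control hearts. No paired analysis was possible because each condition was measured in 1 heart, and for the same reason no replicate could be left out. Signals near the blank spots limit what can be told of dim members such as Elovl6, Srebf2 and Dhcr7.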
